A study of Mus musculus with 6 samples.

Results

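The integrated stress response genes described here are 10 genes tied to Atf4, the transcription factor at the centre of that response. They were taken by symbol from the 17920 genes listed in the table of the series, and all 10 passed the filter on low counts that left 13669 genes for testing. They were divided into 6 stress factors (Atf4, Atf5, Ddit3, Trib3, Chac1 and Ppp1r15a) and 4 genes of amino-acid synthesis and supply (Asns, Psat1, Phgdh and Slc7a11). To ask how RNA levels change when Ybx1, an RNA-binding protein that recognises 5-methylcytosine in mRNA, is reduced, the study sequenced mRNA from 6 libraries. All were from cells dissociated from the cortex of E13.5 mouse embryos (E, embryonic day), cultured, infected with a lentivirus that carries a short hairpin RNA, and treated for a day with puromycin, which kills cells without the virus. In the 3 WT libraries (the control group, named as in the labels) the hairpin was a control, and in the 3 knockdown (KD) libraries it was directed against Ybx1. In the labels the material is brain of stage E13.5, and the sample titles name cortex. A deletion of Ybx1 is what the series text names. The study lists a pair of Ybx1 hairpins, and which was used for these libraries is not given in the sources used here. The age and the method of culture are shared by both groups.

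In the integrated stress response, kinases that sense amino-acid shortage, unfolded protein or other stress phosphorylate the translation initiation factor eIF2. General protein synthesis then falls while translation of the Atf4 mRNA goes up, so Atf4 activity is set largely at translation and the Atf4 mRNA level is only one of its inputs. Atf4 protein enters the nucleus and raises transcription of genes that make and import amino acids and, under prolonged stress, of genes that promote cell death or shut the response off again.

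Atf4 binds DNA with a C/EBP partner at a composite element, for which the letters TGATGNAA (TTNCATCA on the other strand) were searched on both strands of the 250 bases before each start site in the RefSeq promoters of GRCm38.p6. All 10 genes had at least 1 such promoter, 12 in all. A match was present in 3 of the 10 genes, Chac1, Asns and Slc7a11, or 3 of the 12 promoters, against 3.45% of all 32851 promoters and 1.96% of the 14017 promoters of genes tested here. These stretches are printed because they are the ones that carry the element. Each is given 5′ to 3′ on the strand of the gene, with the matches in capitals.
Chac1: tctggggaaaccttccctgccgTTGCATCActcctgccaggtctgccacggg
Asns: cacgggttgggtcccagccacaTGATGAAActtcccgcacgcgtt
Slc7a11: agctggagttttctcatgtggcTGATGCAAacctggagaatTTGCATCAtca
The Chac1 stretch is at chr2:119351027-119351078 on the plus strand, with the match 193 to 186 bases before the start site. The Asns stretch is at chr6:7693210-7693254 on the minus strand, with the match 23 to 16 bases before it. The Slc7a11 stretch is at chr3:50443650-50443701 on the minus strand and holds 2 matches, at 66 to 59 and at 47 to 40 bases before the start site, 1 on each strand. A match is a description of the letters and not evidence of binding, and no match says only that these letters are not in the window searched. The 10 genes were chosen as tied to Atf4, so the share of them with a match is a description and not a test.

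Depth was nearly equal, with library totals between 16294635 and 16497505 estimated counts. The values below are normalised counts per 1000000 (CPM) unless TPM is named, group values are mean ± SD with n = 3 libraries, and a change counts as called where the adjusted p of edgeR's quasi-likelihood test is under 0.05. The targeted gene Ybx1 was at 618.4, 614.9 and 652.9 CPM in WT replicates 1, 2 and 3 and at 98.3, 92.2 and 158.8 CPM in KD replicates 1, 2 and 3. It fell to 18.5% of WT (log2 fold change -2.43 ± 0.18 SE, adjusted p = 0.000182), and KD replicate 3 kept the most. The log2 ratios of same-numbered libraries were -2.65, -2.74 and -2.04 for Ybx1 in pairs 1, 2 and 3. Neuron markers (10 genes, from Tubb3 to Snap25) summed to between 6705.1 and 7302.3 CPM in WT and between 6378.0 and 7234.8 CPM in KD, with 1 called higher and 2 lower, and radial glia markers (8 genes, 2 called higher) to between 1391.9 and 1529.3 and between 1467.3 and 1677.9 CPM. Intermediate progenitor markers (5 genes, 4 of them called higher) summed to between 69.4 and 86.8 CPM in WT and between 142.4 and 175.5 CPM in KD, with no overlap. Astrocyte markers (5 genes) summed to between 198.4 and 267.9 CPM in WT and between 221.6 and 271.8 CPM in KD, oligodendrocyte lineage markers (5 genes, 2 called lower) to between 364.7 and 507.6 and between 313.9 and 410.6 CPM, and fibroblast and pericyte markers (6 genes, 1 called higher) to between 8.19 and 13.0 and between 11.7 and 14.5 CPM. Those of microglia (6 genes), endothelium (5 genes) and erythroid cells (4 genes) summed to at most 2.49, 3.34 and 0.283 CPM in any library. With the replicate block 4 radial glia, 5 intermediate progenitor, 4 neuron and 1 of the fibroblast and pericyte markers were higher. In that fit 2 neuron and 4 oligodendrocyte lineage markers were lower. The radial glia marker Pax6, called higher in both fits, had fractional estimated counts in 6 of 6 libraries. Among all genes tested 12% were called higher and 11.9% lower, and 18.6% and 18.1% with the replicate block. In bulk libraries a smaller number of cells of a type and less RNA per cell cannot be told apart, and the part of these shifts in the values below was not tested.

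The 10 genes covered a wide range of levels, which were compared per length (TPM). In WT, the highest was Atf4 at 183.1 ± 21.8 TPM, next to Asns (asparagine synthetase) at 180.0 ± 27.1 TPM, and the libraries of these genes overlapped. The serine synthesis enzymes followed, with Phgdh at 118.1 ± 11.4 TPM and Psat1 at 97.6 ± 5.11 TPM. Atf5 was at 61.6 ± 14.2, Ddit3 at 37.1 ± 2.68, Ppp1r15a at 23.1 ± 2.68 and Chac1 at 11.0 ± 1.89 TPM. Slc7a11 at 4.01 ± 0.118 TPM and Trib3 at 2.60 ± 0.121 TPM were the lowest. Apart from Atf4 and Asns, no neighbours in this order overlapped between their WT libraries. The order of the means was the same in KD, where Atf4 was at 152.8 ± 13.9 TPM and Asns at 150.5 ± 9.57 TPM. There, Atf5 at 34.2 ± 3.37 TPM and Ddit3 at 31.8 ± 2.39 TPM overlapped as well.

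**Figure D1:**
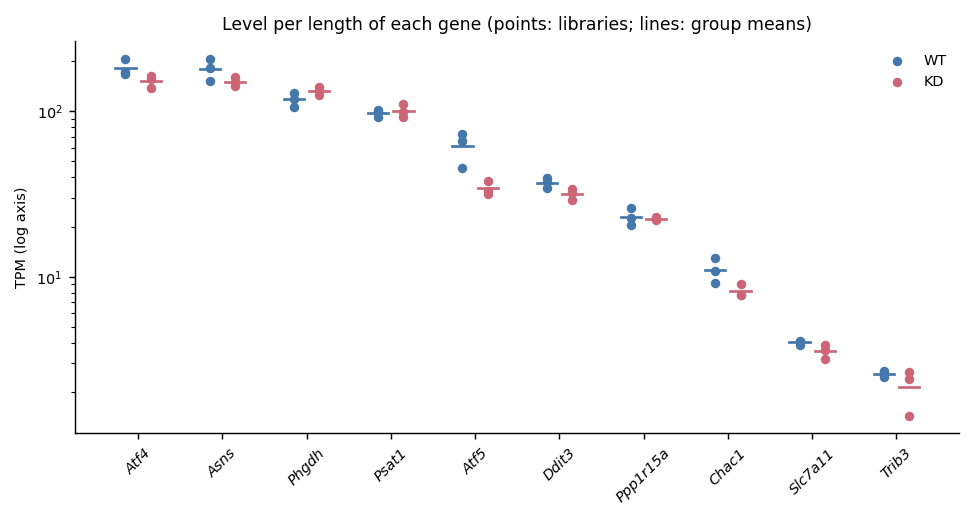
TPM of each of the 10 genes on a log axis, in order of the WT mean; points are the 3 WT and 3 KD libraries and horizontal lines are group means. The genes run from Atf4 at 183.1 TPM to Trib3 at 2.60 TPM in WT, and Atf5 is the gene whose WT and KD points stand furthest apart.

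Across the 10 genes, 2 were lower in KD (Atf4 and Atf5) and 0 were higher, against 11.9% of all genes tested called lower and 12% called higher. By unadjusted p, 5 were under 0.05, all lower (Atf4, Atf5, Ddit3, Chac1 and Asns), where 19.0% of all genes were lower by that measure, and the 3 of these that missed the threshold had adjusted p values between 0.05 and 0.1. With the replicate number as a block in the fit, 5 of the 10 were lower and 0 higher, where 18.1% and 18.6% of all genes were called. In 5 genes (Atf4, Atf5, Ddit3, Chac1 and Slc7a11) every KD library was below every WT library in CPM, which held for 20.6% of all genes. The median log2 fold change was -0.32 for the 6 stress factors and -0.11 for the 4 amino-acid genes, beside 0.00 for all genes tested. The difference between the groups of genes was not tested. The count of 2 rests on single libraries: it was 1 when replicate 1 or 2 of either group was left out, and 5 without WT replicate 3.

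**Figure D2:**
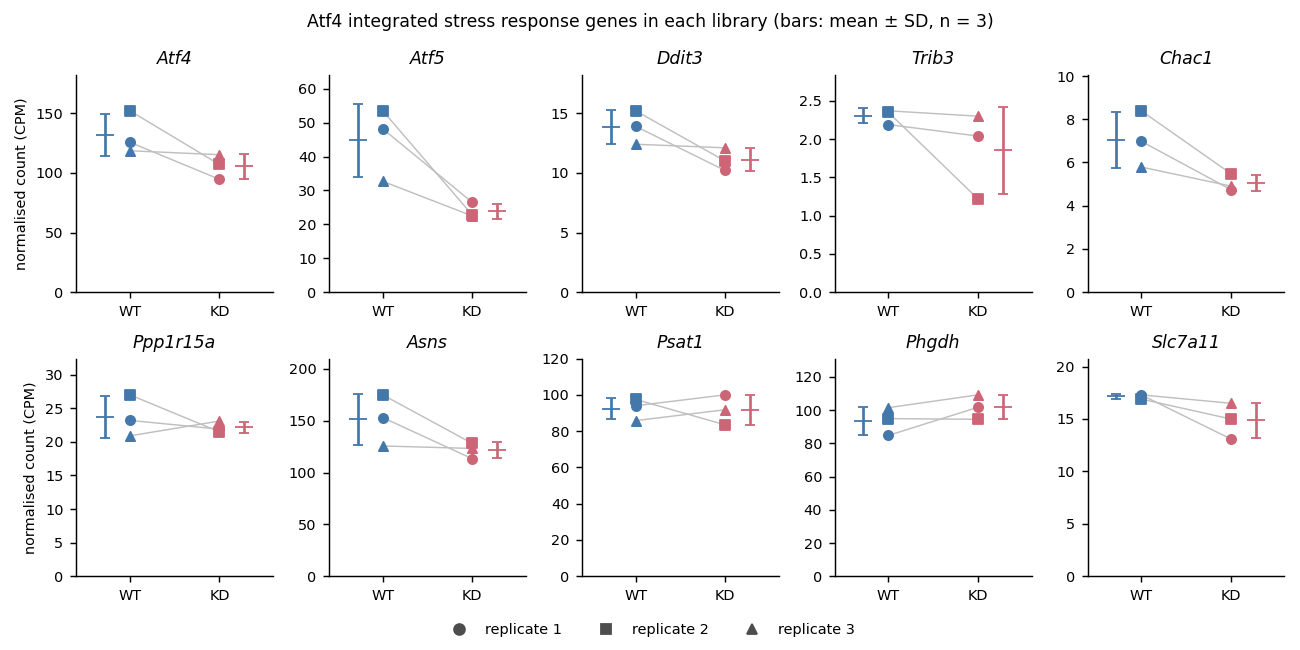
Normalised counts (CPM, axes from 0) of each gene in the WT and KD libraries; symbols mark the replicate number, grey lines join same-numbered libraries, and bars are mean ± SD with n = 3. In Atf4, Atf5, Ddit3, Chac1 and Slc7a11 all KD points are below all WT points, while in Psat1 and Phgdh the groups overlap.

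Atf5, a transcription factor related to Atf4 whose mRNA is also translated under eIF2 phosphorylation and which is known in the embryonic cortex for keeping progenitors from differentiating, showed the greatest change of the 10. It (Entrez Gene 107503, chr7:44812256-44816658) was at 48.2, 53.5 and 32.7 CPM in WT replicates 1, 2 and 3 and at 26.5, 22.8 and 22.5 CPM in KD replicates 1, 2 and 3. The groups did not overlap, and the WT libraries were spread more widely than the KD libraries (44.8 ± 10.8 against 23.9 ± 2.18 CPM). KD was at 53.4% of WT, with a log2 fold change of -0.90 ± 0.16 SE (95% interval -1.27 to -0.54, adjusted p = 0.00568, and 1.04e-05 with the replicate block). The call held in each fit without 1 library and was lost when the pair numbered 2 was left out (-0.72, adjusted p = 0.104). In the GENCODE annotation, 82 exonic bases of Atf5 (4.11%) overlap Nup62 and Il4i1 on the opposite strand, and whether the counting used strand is not given in the sources used here.

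Atf4 itself (Entrez Gene 11911, chr15:80255184-80257545) was at 125.7, 152.1 and 118.6 CPM in WT and at 94.7, 107.1 and 115.3 CPM in KD. The groups did not overlap, but WT replicate 3 and KD replicate 3 stood close to each other, at 1904 and 1902 estimated counts. Atf4 fell to 80.0% of WT, with a fitted difference of -0.32 ± 0.10 SE on the log2 scale (95% interval -0.55 to -0.09) and an adjusted p of 0.0475, just inside the threshold. With the replicate block the adjusted p was 0.00302. The call was lost with total count scaling (0.0553) and in limma on TPM (0.0755 with a pseudocount of 1). It was also lost without WT replicate 1 (0.0572), WT replicate 2 (0.149), KD replicate 1 (0.131) or KD replicate 2 (0.114), and it was kept without either replicate numbered 3. The log2 fold change was between -0.46 and -0.21 in every alternative fit.

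Ddit3 (also called Chop, Entrez Gene 13198, chr10:127290793-127296291), a transcription factor that Atf4 induces and that promotes cell death under lasting stress, was at 13.9, 15.2 and 12.4 CPM in WT and at 10.2, 11.0 and 12.1 CPM in KD. The groups did not overlap, with WT replicate 3 and KD replicate 3 again the closest. Both had 199 estimated counts, so the gap between them comes from the scaling. On the log2 scale the difference was -0.32 ± 0.12 SE (95% interval -0.58 to -0.06), which missed the threshold (adjusted p = 0.0766). It passed with the replicate block (0.0363) and without WT replicate 3 (0.0487). On the opposite strand, Ddit3 shares 68 exonic bases (3.97%) with Mars, the methionyl-tRNA synthetase gene.

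Chac1 (Entrez Gene 69065, chr2:119351242-119354326), an enzyme that degrades glutathione and one of the genes whose promoter holds the element above, was at 6.98, 8.39 and 5.79 CPM in WT and at 4.75, 5.49 and 4.91 CPM in KD. Every KD library was below every WT library, and WT replicate 2 stood highest. KD was at 71.6% of WT, with a log2 fold change of -0.48 ± 0.16 SE (95% interval -0.85 to -0.12) that missed the threshold (adjusted p = 0.059). It passed with the replicate block (0.0158) and without WT replicate 3 (0.0274).

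The other stress factors had no call in any of the 20 alternatives. Trib3, a pseudokinase that Atf4 induces and that acts back on it, was near the lower end of what was counted, with 36, 38 and 38 estimated counts in WT and 34, 20 and 38 in KD. KD replicate 2 stood apart at 20 counts, with a 95% Poisson interval of 12.2 to 30.9 (counting error only) that still overlapped the 26.9 to 52.2 of WT replicate 2, and the other KD libraries were near or among those of WT. The log2 fold change of Trib3 was -0.31 ± 0.25 SE (95% interval -0.86 to 0.25, adjusted p = 0.398), an interval that takes in changes of either sign. Ppp1r15a (also called Gadd34), which guides a phosphatase to eIF2 and so ends the response, was at 23.2, 27.0 and 20.9 CPM in WT and at 21.9, 21.5 and 23.1 CPM in KD. The KD libraries of Ppp1r15a lay within the range of WT, and the log2 fold change was -0.09 ± 0.10 SE (95% interval -0.32 to 0.13, adjusted p = 0.521). Its sign depended on WT replicate 2, without which the log2 fold change was 0.01.

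Among the amino-acid genes, Asns stood nearest to the stress factors. It (Entrez Gene 27053, chr6:7675165-7693209) makes asparagine from aspartate and glutamine, and its promoter holds the element closest to the start site. Asns was at 153.1, 175.0 and 125.7 CPM in WT and at 113.4, 128.2 and 123.3 CPM in KD. WT replicate 3 was below KD replicate 2, so the groups overlapped, while in pairs 1 and 2 the WT library was well above the KD library. Asns had a fitted log2 fold change of -0.31 ± 0.11 SE (95% interval -0.56 to -0.07), which missed the threshold (adjusted p = 0.0616). It passed with the replicate block (0.0034), with upper quartile scaling (0.0468), in DESeq2 (0.0176) and without WT replicate 3 (0.0069) or the pair numbered 3 (0.0171).

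The serine synthesis enzymes were not called in either direction. Phgdh, which takes the step from the glycolytic intermediate 3-phosphoglycerate into serine synthesis, was at 84.8, 94.9 and 101.5 CPM in WT and at 101.7, 94.5 and 109.2 CPM in KD. Its groups overlapped, KD was at 108.6% of WT, and the log2 fold change was 0.12 ± 0.08 SE (95% interval -0.06 to 0.30, adjusted p = 0.295). Psat1, the aminotransferase of the next step, was at 94.0, 97.5 and 85.8 CPM in WT and at 100, 83.5 and 91.8 CPM in KD. KD of Psat1 was at 99.3% of WT, and the log2 fold change was -0.01 ± 0.08 SE (95% interval -0.18 to 0.16, adjusted p = 0.936). The lower bounds of these intervals are above the fitted value of Atf4 (-0.32). The 95% interval of Atf4, -0.55 to -0.09, overlapped that of Psat1 and not that of Phgdh. Differences between genes were not tested. The sign of Psat1 was the other way in 6 of the 20 alternatives, where it reached at most 0.09.

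Slc7a11 (Entrez Gene 26570), the cystine importer that feeds glutathione synthesis and carries a pair of matches in its promoter, was at 17.3, 16.9 and 17.3 CPM in WT and at 13.1, 15 and 16.5 CPM in KD. Its WT libraries were close together, and every KD library was below them in CPM, KD replicate 1 the furthest. In TPM, WT replicate 2 and KD replicate 3 were both at 3.88. The log2 fold change was -0.20 ± 0.10 SE (95% interval -0.43 to 0.02) and missed the threshold (adjusted p = 0.174, and 0.0884 with the replicate block).

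The size of the difference varied between same-numbered pairs. The median log2 ratio of the 6 stress factors was -0.43 in pair 1, -0.56 in pair 2 and -0.04 in pair 3, and that of the 4 amino-acid genes was -0.16, -0.20 and 0.03, beside 0.00 for all genes in each pair. Atf5 had ratios of -0.87, -1.23 and -0.54, and it alone stayed below -0.5 in pair 3. For Atf4 the ratios were -0.41, -0.51 and -0.04, for Ddit3 -0.45, -0.46 and -0.04, and for Asns -0.43, -0.45 and -0.03, so the ratios of these 3 genes were near 0 in pair 3. Chac1 was intermediate at -0.56, -0.61 and -0.24. Trib3 had its ratio of -0.94 in pair 2, with -0.10 and -0.04 in the others. Slc7a11 ran from -0.40 in pair 1 through -0.17 to -0.07 in pair 3. In all, 7 of the 10 genes were lower in KD in each of the 3 pairs (all but Ppp1r15a, Psat1 and Phgdh), which held for 30.7% of all genes tested.

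**Figure D3:**
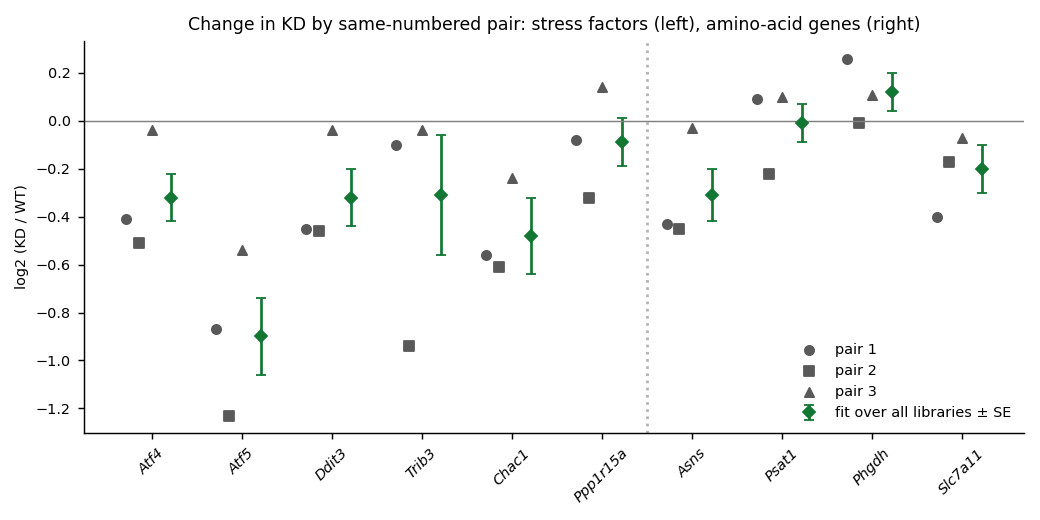
Log2 ratio of KD to WT in each same-numbered pair (grey symbols) and the fitted log2 fold change over all libraries ± SE (green) for the stress factors on the left and the amino-acid genes on the right. For Atf4, Ddit3 and Asns, pairs 1 and 2 lie between -0.51 and -0.41 and pair 3 between -0.04 and -0.03.

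In pair 3 many of the 10 genes had a low WT library, a high KD library or both. In WT, 7 of the 10 genes (Atf4, Atf5, Ddit3, Chac1, Ppp1r15a, Asns and Psat1) had their highest value in replicate 2, and the same genes had their lowest value in replicate 3. In KD, Atf4, Ddit3, Trib3, Ppp1r15a, Phgdh and Slc7a11 were highest in replicate 3, the library that also kept the most Ybx1. The part of the remaining Ybx1 in the small ratios of pair 3 was not tested.

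Upstream of Atf4, 14 genes of the eIF2 kinases, their regulators, the eIF2 phosphatases and eIF2B were tested. Of these, 2 were called higher and 1 lower, beside 12% and 11.9% of all genes tested. The median log2 fold change was -0.06. The change furthest from 0 was in Impact, an inhibitor of the amino-acid-sensing kinase Gcn2, which was at 63.2, 67.3 and 69.3 CPM in WT and at 45.1, 44.2 and 45.1 CPM in KD. Impact fell by 0.57 on the log2 scale (SE 0.06, adjusted p = 0.000488), with no overlap and with like ratios of -0.48, -0.61 and -0.62 in the 3 pairs. Eif2ak3 (Perk), the kinase of the endoplasmic reticulum, rose (0.31 ± 0.06 SE, adjusted p = 0.00734), as did Eif2b2, a subunit of the exchange factor eIF2B (0.41 ± 0.08 SE, adjusted p = 0.00848). Of these 3, Impact alone kept its call without the pair numbered 2 (adjusted p = 0.0382, against 0.11 for Eif2ak3 and 0.0905 for Eif2b2).

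Of 12 tested genes among other stress-side targets of Atf4, 1 was lower (Sesn2) and 0 were higher, beside 11.9% and 12% of all genes. The median log2 fold change was -0.16. With the replicate block 3 were lower and 1 higher, beside 18.1% and 18.6% of all genes. Sesn2, which restrains mTORC1 when leucine is short, was at 25.9, 31.4 and 24.1 CPM in WT and at 17.6, 22 and 16.2 CPM in KD. Its groups did not overlap and, unlike in Atf4, the ratio in pair 3 (-0.57) was like that in pairs 1 (-0.56) and 2 (-0.51). The log2 fold change of Sesn2 was -0.55 ± 0.13 SE (adjusted p = 0.0195), and leaving out WT replicate 2 (0.0759), KD replicate 1 (0.056) or KD replicate 3 (0.057) ended the call. Tnfrsf10b, a death receptor gene, and Eif4ebp1, which encodes an inhibitor of cap-dependent translation, had log2 fold changes of -0.57 ± 0.20 SE (adjusted p = 0.0677) and -0.49 ± 0.20 SE (adjusted p = 0.108), and both passed with the replicate block (0.0447 and 0.038). Eif4ebp1 also passed without WT replicate 3 (0.0165), but its groups overlapped and its ratio in pair 3 was 0.17. Tnfrsf10b had 27 to 51 estimated counts per library and an adjusted p of 0.228 in DESeq2. Over the alternative fits the largest adjusted p was 0.566 for Eif4ebp1 and 0.348 for Tnfrsf10b.

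On the metabolic side, serine, glycine and one-carbon synthesis around Phgdh and Psat1 had 1 of 10 genes higher and 0 lower. Among all genes tested, 12% were called higher and 11.9% lower. The median of the list was 0.20, and with the replicate block 3 were higher, beside 18.6% of all genes. Mthfd1, a cytosolic folate enzyme, was at 41.0, 38.3 and 38.6 CPM in WT and at 53.7, 51.2 and 48.3 CPM in KD. The groups of Mthfd1 did not overlap, and it rose by 0.38 ± 0.06 SE on the log2 scale (adjusted p = 0.00384). Shmt2, the mitochondrial enzyme that makes glycine from serine, was at 0.20 ± 0.08 SE (adjusted p = 0.0869, and 0.0284 with the replicate block). Tyms, thymidylate synthase, was at 0.40 ± 0.15 SE (adjusted p = 0.0872, and 0.022 with the replicate block), with fractional estimated counts in 6 of 6 libraries. In the list of other amino-acid synthesis, 2 of 14 genes were higher and 1 was lower, beside 12% and 11.9% of all genes. The median was 0.11, and with the replicate block 4 were higher and 3 lower, beside 18.6% and 18.1% of all genes. Got2, the mitochondrial aspartate aminotransferase, rose by 0.25 ± 0.05 SE (adjusted p = 0.0125), and Glul, glutamine synthetase, fell by 0.29 (SE 0.07, adjusted p = 0.0196). Asnsd1, whose product resembles Asns in sequence, was called higher (0.23 ± 0.06 SE, adjusted p = 0.0203), but its estimated counts were fractional in 6 of 6 libraries, so reads were shared with other sequences. Asnsd1 was not called in DESeq2 (0.0627). The calls of Glul and Asnsd1 were lost without WT replicate 2 (0.0591 and 0.0791) or KD replicate 2 (0.0746 and 0.0676), and that of Asnsd1 without KD replicate 3 as well (0.0583).

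Of the amino-acid transporters 6 of 10 were lower and 0 higher, beside 11.9% and 12% of all genes tested, with a median of -0.35. The count was 4 without KD replicate 1 or KD replicate 2, and 1 without the pair numbered 2. By pair the median was -0.50, -0.51 and -0.12. Slc7a3, an importer of arginine and lysine, was at 17.6, 21.2 and 16.8 CPM in WT and at 8.42, 9.70 and 10 CPM in KD (log2 fold change -0.98 ± 0.12 SE, adjusted p = 0.00121). Slc6a9, a glycine transporter, was at 44.6, 41.4 and 34.5 CPM in WT and at 25.3, 23.9 and 23.5 CPM in KD (-0.73 ± 0.10 SE, adjusted p = 0.00154). Slc1a4, a carrier of neutral amino acids including serine, was at 165.9, 183.5 and 171.1 CPM in WT and at 111.9, 128.9 and 131.7 CPM in KD (-0.48 ± 0.07 SE, adjusted p = 0.0023). In these 3 genes the groups did not overlap and pair 3 was lower in KD as well, with ratios of -0.75, -0.56 and -0.38. Slc7a3 kept its call in each alternative fit (largest adjusted p 0.0445), while Slc1a4 and Slc6a9 lost theirs without the pair numbered 2 (0.0624 and 0.0625).

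The remaining transporters that fell were looked up after their values had been seen. Slc3a2, the heavy chain that Slc7a11 and Slc7a5 both need to reach the cell surface, was at 131.5, 157.3 and 124.6 CPM in WT and at 102.9, 109.8 and 111.5 CPM in KD (-0.35 ± 0.08 SE, adjusted p = 0.0182). Slc7a5, the importer of large neutral amino acids such as leucine, was at -0.51 ± 0.08 SE on the log2 scale (adjusted p = 0.00265). Both had fractional estimated counts, in 5 and in 6 of the 6 libraries, and are less certain for that. Slc7a1, another importer of arginine and lysine, had -0.36 ± 0.10 SE (adjusted p = 0.0292) and whole counts throughout, but its call was lost without any single library except WT replicate 3 (0.0512 to 0.0863). Slc3a2 lost its call without KD replicate 1 (0.056) or KD replicate 2 (0.0582), and Slc7a5 kept its call without each single library. The other 4 transporters were not called. Among them Slc38a2, a carrier of glutamine and alanine, was above WT in all KD libraries (0.16 ± 0.05 SE, adjusted p = 0.0539, and 0.0251 with the replicate block). Promoters were at hand for 6 of these 10 transporter genes, namely Slc3a2, Slc7a1, Slc1a4, Slc6a9, Slc38a2 and Slc43a1. Of the 6, 0 held the element searched, beside 1.96% of the promoters of genes tested, so the absence does not set them apart. Slc38a2 and Slc43a1 were not called, and Slc7a3 and Slc7a5 had no promoter to search.

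**Figure D4:**
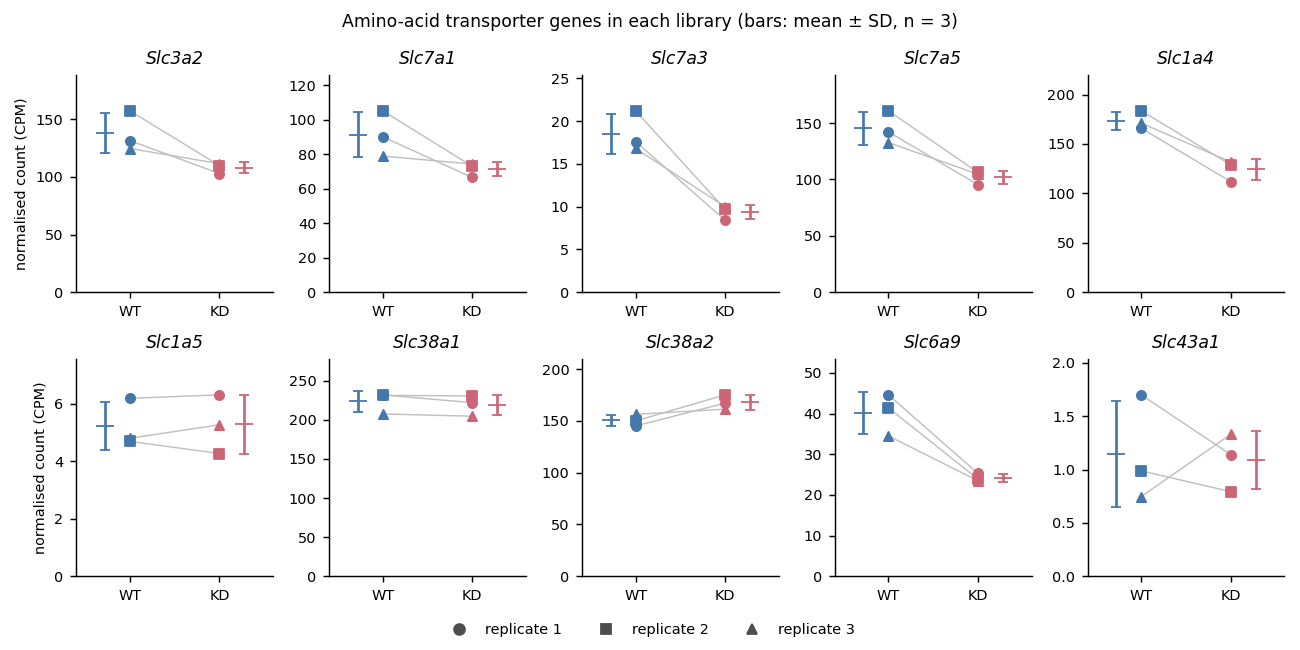
Normalised counts (CPM, axes from 0) of the 10 amino-acid transporter genes in each WT and KD library; symbols mark the replicate number, grey lines join same-numbered libraries, and bars are mean ± SD with n = 3. Slc3a2, Slc7a1, Slc7a3, Slc7a5, Slc1a4 and Slc6a9 have all KD points below all WT points, and Slc38a2 has all KD points above them.

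The neighbouring stress pathways were also counted. The Ire1 and Atf6 branches of the unfolded protein response deal with unfolded protein in the endoplasmic reticulum beside Perk. Of their 16 genes, 5 were lower and 0 higher, beside 11.9% and 12% of all genes tested. The median was -0.05. With the replicate block 5 were lower and 1 higher (Ern1, which encodes Ire1, adjusted p = 0.0174), beside 18.1% and 18.6% of all genes. Sel1l, a part of the machinery that exports misfolded protein for degradation, was at 208.8, 212.6 and 218.5 CPM in WT and at 165.8, 174.0 and 172.6 CPM in KD (-0.32 ± 0.04 SE, adjusted p = 0.00202). Xbp1, the transcription factor whose mRNA Ire1 splices, had -0.41 ± 0.08 SE (adjusted p = 0.00627). Hspa5 (BiP), the main chaperone of the endoplasmic reticulum, had -0.25 ± 0.06 SE (adjusted p = 0.0147), lost without WT replicate 2 (0.0595) or KD replicate 2 (0.0589). Splicing of Xbp1 cannot be read from gene-level counts. The Nrf2 antioxidant genes share Slc7a11 as a target with Atf4. Of these 10, 3 were lower and 0 higher, beside 11.9% and 12% of all genes tested, and the median was 0.00. With the replicate block 3 were lower and 2 higher, beside 18.1% and 18.6% of all genes. The 2 were Nfe2l2, which encodes Nrf2 itself (adjusted p = 0.0223), and Txnrd1 (0.048). Gclm, a subunit of the enzyme that starts glutathione synthesis, had -0.29 ± 0.06 SE (adjusted p = 0.00958), and Srxn1, which repairs oxidised peroxiredoxins, had -0.40 ± 0.10 SE (adjusted p = 0.0185, lost without WT replicate 2 at 0.0755 or KD replicate 1 at 0.0566). The third was Keap1, which is the inhibitor of Nrf2 and not a target (-0.22 ± 0.07 SE, adjusted p = 0.0423), and its call was lost in 5 of the 6 fits without 1 library (0.0601 to 0.147).

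**Figure D5:**
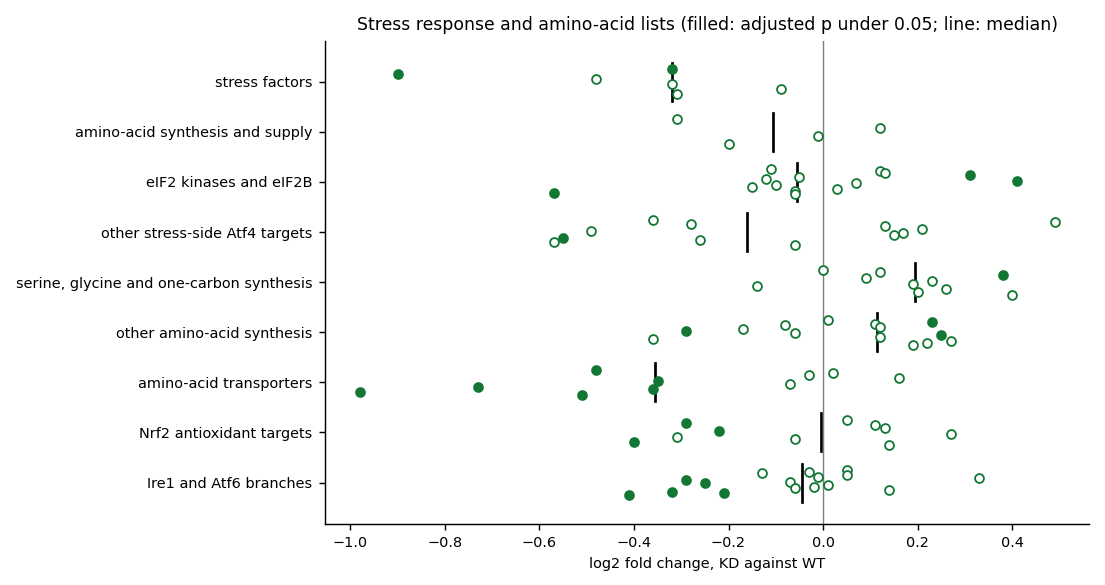
Fitted log2 fold change of each tested gene in the groups of stress factors and amino-acid genes and in the 7 pathway lists; filled points have an adjusted p under 0.05 and the black line is the median. The transporter list is the one with 6 of 10 genes filled on the lower side, and the list of serine, glycine and one-carbon synthesis has its median above 0, at 0.20.

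The genes with the pattern most like that of a given gene were found by the root mean square difference of log2 CPM, centred on each gene's mean, over the 6 libraries among all genes tested. For Atf4 these were Atp1b1 (0.041), Ppm1h (0.042) and Slc7a8 (0.042), where Atf4 itself varied by 0.21 about its mean. For Asns they were Slc7a1 (0.043), E130311K13Rik (0.044) and Bdh1 (0.044). Ddit3 was closest to Yif1b (0.018), Ccdc107 (0.030) and Atp1b1 (0.033), and Chac1 to Sgk1 (0.038), 1110065P20Rik (0.053) and Nfil3 (0.067). The genes nearest to Atf5 were Olfr1033 and Cend1 at 0.12 and Steap3 at 0.13, where Atf5 itself varied by 0.49 about its mean. A gene that varies more tends to have larger differences, so these values do not rank the genes. Of the 10 genes, none was among the 3 nearest to another. With 6 libraries many genes fall on similar patterns, and the likeness is given as a description of these libraries.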

How the data were processed

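RNA-seq was measured in 6 libraries, 3 WT and 3 KD, grouped and numbered by the sample titles (control columns are headed Ctrl and were assigned by their number). The series text speaks of biological replicates sequenced in batches and ties no number to a culture or batch, so part of the spread behind the p-values may be technical. The submitters' processing notes name HISAT2 2.2.1, Bowtie2 2.4.5 and RSEM 1.3.1 and the mouse genome GRCm38, and the sources used here do not say whether counting used strand. The deposited table gives an estimated count per gene, of which 89.3% to 89.9% were whole in a library, and the TPM computed by the authors, which divide by length. The FPKM columns and group averages that the authors also deposited were not used here. A fractional estimated count shows that reads were divided between genes, and all 10 genes had whole counts in every library.

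Estimated counts were rounded, and KD was compared with WT by the quasi-likelihood F-test of edgeR 4.0.16 (R 4.3.3), with TMM scaling and filterByExpr at a minimum count of 10. Benjamini-Hochberg adjustment covered all 13669 genes tested. SE was obtained from the size of the log2 fold change over the root of F. CPM use TMM-scaled library sizes, and the log2 CPM of the search for like patterns have a prior count of 2. The main fit was also run on simulated counts without pairs. The genes changed there were well counted and changed more than most of the 10 genes did. That run does not cover the replicate block, smaller changes or low counts. Replicates of a group differed by a chi-square of 4.57 to 9.05 per degree of freedom and were counted as separate samples. The between-library coefficient of variation was 7.69%, or 4.71% with the replicate block.

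Deviations of log2 CPM from group means correlated at 0.35, 0.32 and 0.18 over genes for same-numbered libraries and at -0.28 to -0.02 for the others. Centring on group means makes the deviations of a group cancel for each gene, so positive same-number values bring negative values for the others. The correlations were not tested, and the labels do not state a pairing. A second fit took the replicate number as its block, which assumes that the numbers pair the libraries. The other alternatives were 3 scalings, 2 filters, DESeq2 1.42.0, limma 3.58.1 (voom on counts, and on TPM with a pseudocount of 1 or 0.1), leaving out each library or each pair, and an adjusted p of 0.01.

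The 10 genes, the 7 pathway lists and the marker lists were chosen with earlier results of these data known, so no test was made over a list. From each pathway list the 3 genes with the smallest adjusted p were named, and from the transporters also the others that passed. Fgf21 was not analysed here, 1 further gene of the pathway lists is not reported here, and Nupr1, Gdf15 and Cdsn did not pass the filter. Gene coordinates and promoters are from RefSeq (GRCm38.p6), and exon overlaps from GENCODE.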

Additional observations from a re-analysis of the deposited data

How the results depend on the processing

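The medians of the stress factors and of the amino-acid genes kept their sign in all alternatives, between -0.46 and -0.23 and between -0.17 and -0.05. The count of lower genes among the 10 was 1 with total count scaling, with either pseudocount on TPM (1 or 0.1) and at an adjusted p of 0.01, and it was between 0 and 5 over the fits without 1 library or 1 pair. It was 0 without the pair numbered 2, with 2 libraries per group left. The replicate block raised it from 2 to 5, and it raised the genes called over the whole table from 1646 higher and 1631 lower to 2539 and 2470. It also moved the calls of Eif4ebp1, Tnfrsf10b, Shmt2 and Tyms, and those of Slc38a2, Nfe2l2, Txnrd1 and Ern1. Over the whole table, 1072 and 1063 genes were lower on TPM with a pseudocount of 1 and 0.1, beside 2076 higher in both, so the split was less even than without TPM. It was 1888 higher and 1375 lower with total count scaling and 1392 and 1845 with upper quartile scaling, and 629 were higher and 634 lower at an adjusted p of 0.01. Without 1 library or 1 pair the counts ran from 135 to 1612 higher and from 93 to 1583 lower, the smallest without the pair numbered 2. Atf5 was called in 19 of 20 alternatives, Atf4 in 10, Asns in 5, Chac1 and Ddit3 in 2 each, and the other 5 genes in 0. The log2 fold change of Psat1 was above 0 with total count scaling (0.01), on TPM with either pseudocount (0.04), without WT replicate 2 (0.03), KD replicate 2 (0.05) or the pair numbered 2 (0.09), with -0.08 as its lowest value without 1 library (KD replicate 1), and that of Ppp1r15a was above 0 without WT replicate 2 (0.01) or that pair (0.03), with -0.21 as its lowest without a pair (numbered 3). Among the named pathway genes that passed, only Impact and Slc7a3 kept their call without the pair numbered 2. The cause of these shifts was not tested. Counts were lowest for Trib3, with 20 to 38 per library.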
